A study of Oryza sativa Japonica Group with 238 samples.

Results

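The RAB16 cluster is a group of dehydrin genes on rice chromosome 11, described here in roots across cell populations and water regimes. Its 5 genes were taken by gene identifier from the 28248 genes of the expression table, with earlier results of these data known. They are RAB21 (OS11G0454300, also called RAB16A), RAB16B (OS11G0454200), RAB16C (OS11G0454000), RAB16D (OS11G0453900) and DHN1 (OS11G0451700). All 5 had values in all 187 RNA libraries, and each had an upstream region in all 51 chromatin accessibility libraries. In the RefSeq annotation of assembly ASM3414082v1, 4 of the 5 were matched by symbol and place on chromosome 11, in the order RAB16D, RAB16C, RAB16B, RAB21. The row there with the symbol of DHN1 is a gene on chromosome 2, so DHN1 was left unmatched. As close relatives these genes can share reads. No source used here says how such reads were divided, which leaves the level of each single gene uncertain.

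Dehydrins are hydrophilic late embryogenesis abundant (LEA) proteins that accumulate in maturing seeds and in vegetative tissue that loses water, where they are thought to shield membranes and other proteins. RAB stands for responsive to abscisic acid (ABA), the plant hormone of water shortage. ABA bound to its receptors holds back clade A protein phosphatases (PP2C), which frees SnRK2 kinases, and these activate bZIP transcription factors that bind ABA-responsive elements in promoters such as those of the RAB16 genes.

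The plants were cv. Nipponbare lines carrying the ribosomal tag HF-GFP-OsRPL18, in which a promoter sets the cells whose polysomes are captured by translating ribosome affinity purification (TRAP). The 35S promoter drives the tag broadly, and the other RNA lines are named for the promoters RSS1, CMZ, SCR (of the Arabidopsis gene), CASP, LSI1, QHB, SHR1, EXP5B, HMA5 and NRAMP5. TOTAL RNA was also taken from the 35S line, which gave 157 TRAP and 30 TOTAL libraries in 62 groups. A separate set of 35S, CMZ and QHB lines carries a nuclear tag (NTF) for the assay of transposase-accessible chromatin (ATAC), in 17 groups. Every group has 3 libraries except CMZ TRAP on plates, which has 4.

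Greenhouse roots came from plants 26 days old: watered control I, water deficit of 5 to 6 days without watering, waterlogging of 5 days, and watered control II with submergence of 5 days. The tie of control II to submergence was inferred, not stated. Recovery was 1 day of return to control watering, at 27 days. Field plants were 49 days old, and seedlings grown on agar plates with sucrose were 7 days old, so field and plate differ from control I in age as well as in setting. All lines are transgenic. A greenhouse replicate pooled the plants of 1 pot. What separates replicates in the field or on plates is not given, so p-values there measure the spread between libraries, which may be technical.

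Levels are TPM, transcript abundance scaled to gene length and library size, from reads that the authors quantile-normalized, which sets a library's values by the ranks of its genes. The read depth behind them is unknown. ATAC totals ran from 812498 to 17113727 counts, with a median of 3099295. The promoter gene QHB was at 103 to 169 TPM in the QHB line under deficit and at most 0.427 TPM in 35S TRAP, and the RSS1 gene was at 277 to 419 TPM in its own line against 10.4 to 18.8. The LSI1 gene stood less far apart: 709, 364 and 2639 TPM in the LSI1 line under deficit against 208, 268 and 337 in 35S TRAP, so that LSI1 deficit replicate 2 was close to 35S.

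Across all environments, the cluster had its highest levels under water deficit. For each of the 5 genes, the 8 deficit groups were the 8 highest of 62, and no library from any other environment reached the lowest deficit library. For RAB21 that lowest deficit library had 3978 TPM (SCR), and the highest library elsewhere had 967 TPM (SCR after waterlogging recovery). The corresponding levels were 787 and 158 TPM for RAB16B, 775 and 169 for RAB16C, 1770 and 914 for RAB16D, and 867 and 187 for DHN1. For RAB16B and RAB16D the highest library elsewhere was a QHB plate library, and for RAB16C it was an RSS1 library after waterlogging recovery. Together the 5 genes took 0.00362 to 0.0536% of all TPM in control I libraries and 0.820 to 16.8% in deficit libraries. The deficit shares depend on the rank of RAB21, since the normalization sets values by rank. In LSI1 the share was 3.02% in replicate 1, where RAB21 ranked second, and 16.8 and 15.6% in replicates 2 and 3, where it ranked first. They are shares of normalized TPM and not measured parts of the RNA.

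**Figure D1:**
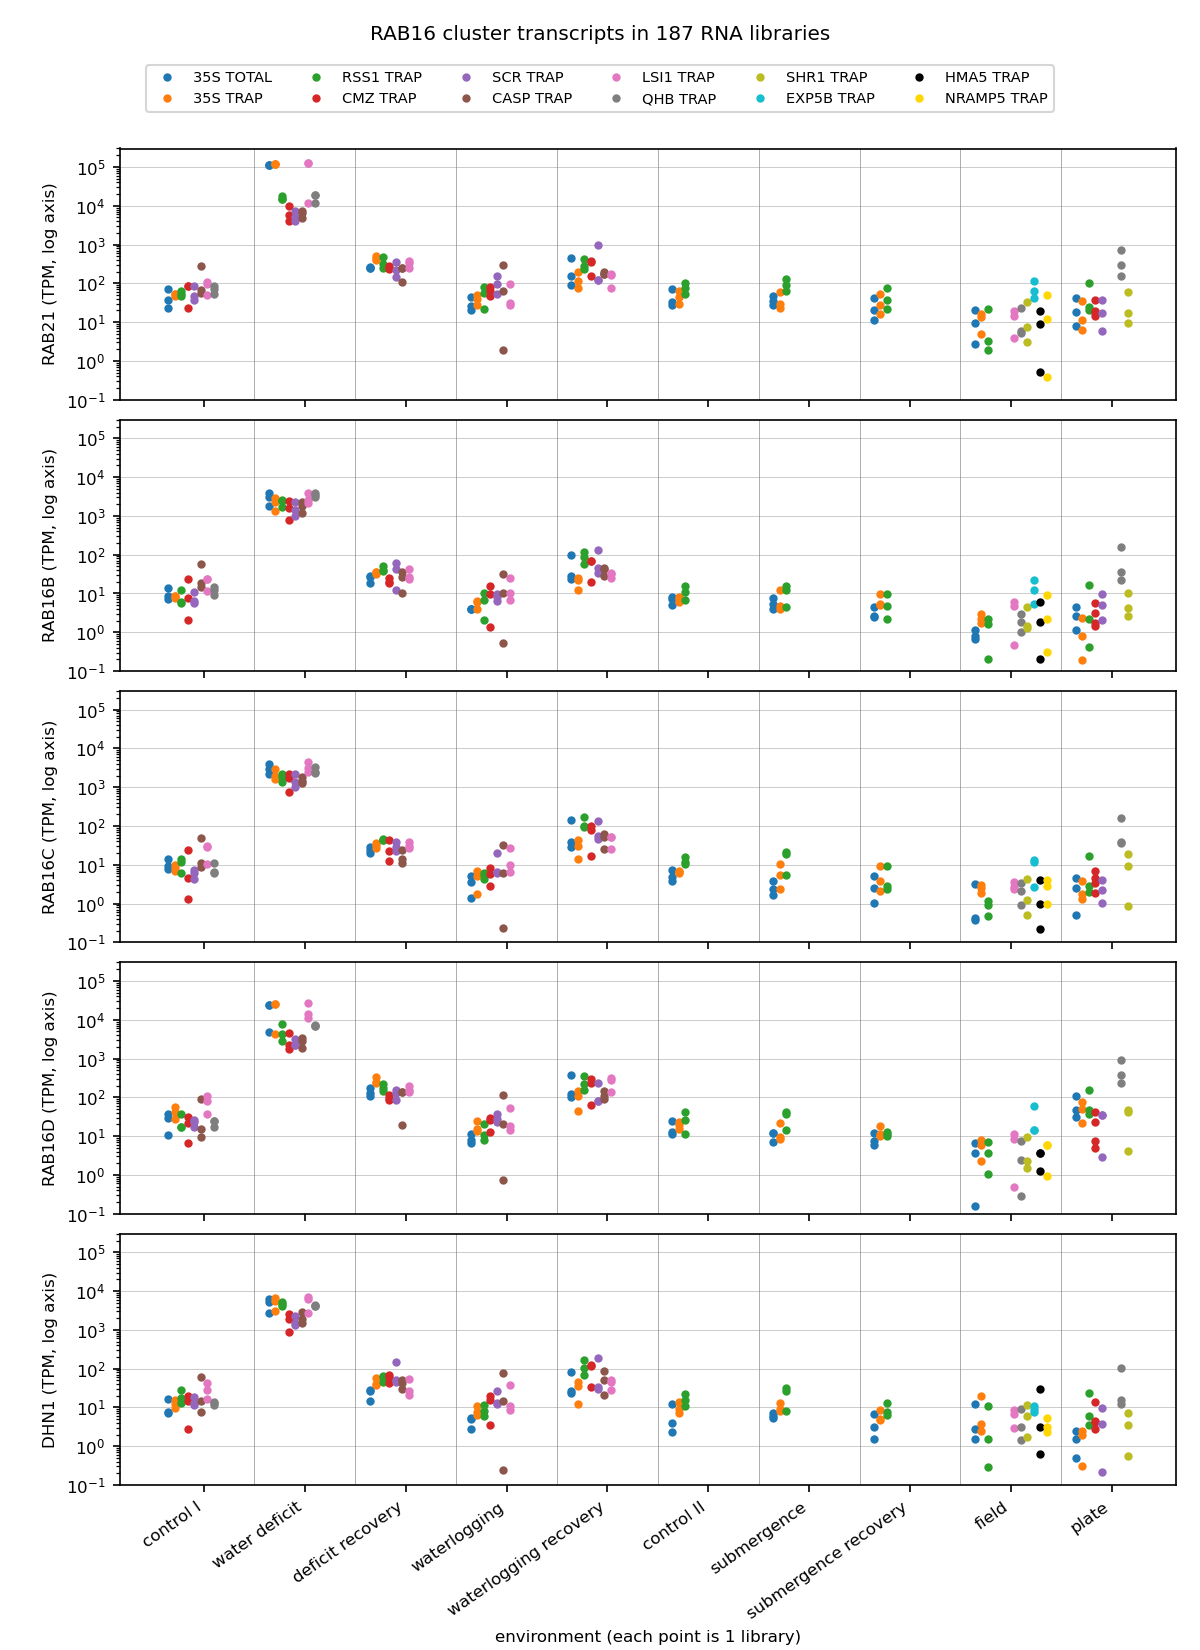
Level of each gene in each of 187 RNA libraries (TPM, log axis), by environment, with a color for each line and RNA pool. The water deficit points lie above every other point in all 5 panels, and the QHB plate points (grey, right) lie above the other plate points except for DHN1, where they overlap with RSS1 and CMZ points.

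Between neighbours in the order of the 62 group means the ranges mostly overlapped: 58 of 61 neighbouring pairs for RAB21, 59 for RAB16D and DHN1, and 60 for RAB16B and RAB16C. In TPM, which is scaled per length, RAB21 was the highest of the 5 genes in 54 groups, RAB16D in 7 and DHN1 in 1. Mean levels under control I ran from 43.4 to 135 TPM over the 8 groups for RAB21 and from 19.7 to 75.6 for RAB16D. DHN1 ran from 10.4 to 29.4 TPM, RAB16B from 7.74 to 30.1 and RAB16C from 5.94 to 23.3. The genes varied together over group means of log2(TPM + 1), with Pearson r between 0.939 (RAB16D and DHN1) and 0.994 (RAB16B and RAB16C) over 62 groups. Without the deficit groups r lay between 0.788 and 0.975 over 54 groups. These points share libraries and the normalization, and the values are a description.

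Water deficit raised all 5 genes in whole-root RNA and in every tagged population measured. Before deficit they were low to moderate transcripts, and after it RAB21 was the most abundant transcript of the 35S libraries. In 35S TRAP RNA, RAB21 was at 54.5, 48.5 and 54.5 TPM in control I and at 117500, 116900 and 121800 TPM under deficit. RAB16D was at 28.2, 55.9 and 42.7 TPM in control I and then at 25030, 24890 and 4409. DHN1 was at 15.6, 9.73 and 12.04 TPM and then at 5604, 6557 and 3143. The replicates of RAB21 lie close together in both groups. Under deficit it held the first rank in each of these libraries, and the normalization sets values by rank. Its closeness there is therefore no measure of the spread between replicates. Deficit replicate 3 was the lowest of the 3 for RAB16D and DHN1, and RAB16D ranked 12 in it against 2 in the others. RAB16B was at 8.74, 8.36 and 7.47 TPM in control I and at 2262, 2821 and 1313 under deficit. RAB16C was at 10.1, 6.77 and 8.45 TPM and then at 1984, 2877 and 1632. No deficit library came near a control I library for any gene.

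Differences were tested with limma on log2(TPM + 1) over all genes, and a gene was called at a Benjamini-Hochberg adjusted p under 0.05 with a log2 difference of at least 1. Fold values on this scale understate the change of low genes. All 40 pairs of gene and group were called higher under deficit, against 5.61% of all pairs of gene and group tested (2.16 to 10.6% within a group). The log2 difference ran from 5.89 to 11.46 with a median of 7.75, while the median over all genes tested lay between -0.14 and 0.08. The deficit and control I ranges were apart in all 40 pairs. The share of all genes with ranges apart was not computed, here or for the later counts of pairs without overlap. In 35S TRAP the log2 difference was 11.12 ± 0.49 (SE) for RAB21 (limma adjusted p = 1.56e-14), 8.52 ± 0.51 for DHN1 (adjusted p = 3.18e-12) and 8.39 ± 0.56 for RAB16D (adjusted p = 2.9e-11). It was 7.82 ± 0.45 for RAB16C (adjusted p = 1.6e-12) and 7.79 ± 0.36 for RAB16B (adjusted p = 4.29e-14). These are bulk samples, in which fewer cells of a type and less RNA per cell cannot be told apart.

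Ranked by the size of the rise, RAB21 was 1 of 26315 genes tested in 35S TRAP, 1 of 26506 in 35S TOTAL RNA and 1 of 26069 in LSI1. In LSI1 that place rests on the first value of 2 libraries: with it reset to the second value, as described further on, the rise was 7.65 for RAB21 and 7.87 for RAB16D. In the other groups it ranked 6 (RSS1), 19 (QHB), 42 (CMZ), 45 (SCR) and 55 (CASP), the last place of any of the 5 genes. RAB16C stood ahead of RAB21 in CMZ, SCR and QHB, at rank 10 in each. DHN1 ranked 4 in 35S TRAP and LSI1 and 8 in QHB, and RAB16B ranked 7 in RSS1 and LSI1. The smallest rise of RAB21 was in CASP, from 56.8, 67.9 and 280 TPM in control I to 6574, 7129 and 4969 under deficit (log2 5.89 ± 1.02, limma adjusted p = 0.00122). One CASP control I library, replicate 4, was the highest of its group for all 5 genes. Without it the RAB21 difference in CASP was 6.61 (limma adjusted p = 0.0019 for RAB21, water deficit against control I, CASP TRAP). In LSI1 the RAB21 difference of 9.46 was 10.61 without deficit replicate 1.

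**Figure D2:**
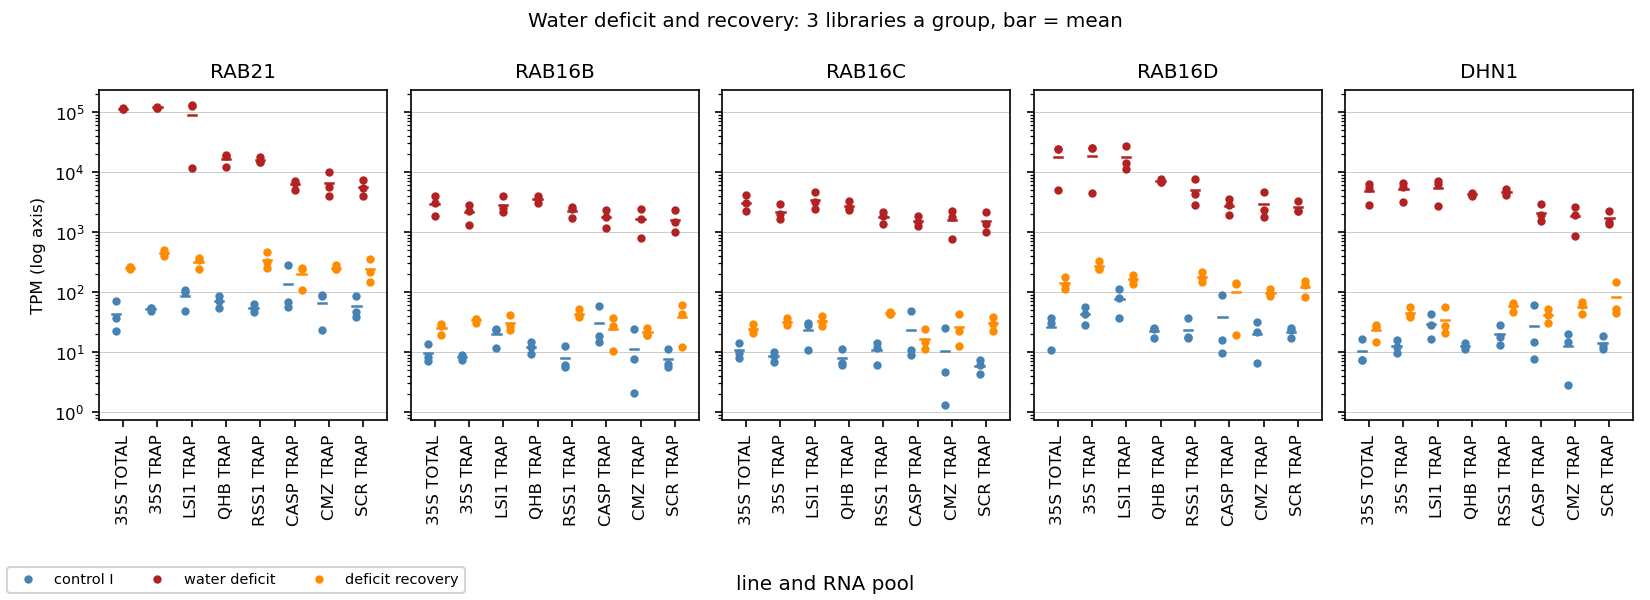
Levels of the 5 genes (TPM, log axis) in control I, water deficit and deficit recovery for 8 combinations of line and RNA pool, with 1 point per library and a bar at the mean. Deficit points stand above both other environments in every column, and no QHB recovery group was measured.

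Under deficit the level of RAB21 differed between lines, while no difference from 35S was called for RAB16B, RAB16C or DHN1. RAB21 was at 112300, 111900 and 114900 TPM in 35S TOTAL RNA, close to the 35S TRAP libraries, where it also held the first rank. It was at 14620, 17450 and 14710 TPM in RSS1 and at 12130, 18620 and 19030 in QHB. It was lower again in CASP (above), in CMZ at 4000, 10000 and 5661 TPM, and in SCR at 3978, 7235 and 5292. LSI1 held both ends, with 11580 TPM in replicate 1 and 125900 and 129700 in replicates 2 and 3.

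Against 35S TRAP under deficit, 8 of 30 pairs were called lower, against 5.25% of all pairs of gene and line. RAB21 was lower by log2 differences of -4.47 in SCR, -4.28 in CMZ, -4.27 in CASP, -2.93 in RSS1 and -2.87 in QHB, and in LSI1 the difference was -1.05 (limma adjusted p = 0.513). RAB16D was lower in SCR (-2.48), CASP (-2.41) and CMZ (-2.40). RAB16B and RAB16C had differences from -0.57 to 0.77 in the 6 lines, and all overlapped with 35S except RAB16B in QHB, which lay above it. DHN1 had differences of -1.57 in CMZ and SCR and -1.27 in CASP, with no overlap with 35S, and none was called (smallest limma adjusted p = 0.0837). The count of 8 was 4 without the libraries numbered 1 and 3 without those numbered 2.

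The level of RAB21 moved in steps with its rank in the library. RAB21 ranked first in 8 libraries, all 6 of 35S under deficit and LSI1 deficit replicates 2 and 3, at 111900 to 129700 TPM. It ranked second in 7 libraries, those of RSS1 and QHB and LSI1 replicate 1, at 11580 to 19030 TPM. In CMZ, SCR and CASP it ranked 4 to 10. RAB16D ranked second in 6 of the libraries that RAB21 led. The ratio of RAB21 to RAB16D was 4.69 or 4.70 in 5 of these, 35S replicates 1 and 2 of both RNA pools and LSI1 replicate 2, and 9.09 in LSI1 replicate 3. Another gene, OS06G0175500, held the first rank in all deficit libraries of RSS1, QHB, CMZ, SCR and CASP, at 42630 to 49260 TPM, and was at 758 to 1656 TPM in 35S TRAP. RAB16D replicate 3 of 35S, at rank 9 in TOTAL RNA and 12 in TRAP, was outside the second rank.

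When the first value of every library was set to its second value, the RAB21 rise was 9.25 in 35S TOTAL RNA, 9.06 in 35S TRAP and 7.65 in LSI1, and all 40 pairs were still called. The lower RAB21 level was still called in SCR (-2.41), CMZ (-2.22) and CASP (-2.21), but not in RSS1 (-0.87, limma adjusted p = 0.586) or QHB (-0.81, adjusted p = 0.501). A smaller deficit response than in 35S, the interaction of line and environment, was called for 3 of 30 pairs against 0.579% of all pairs: RAB21 in CASP (-5.23), SCR (-4.51) and CMZ (-4.37). With the first value reset, none of the 3 was called (CASP -3.17, limma adjusted p = 0.0864). Without the libraries numbered 2 none was called either, and without those numbered 1 or 3 only CASP was.

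**Figure D3:**
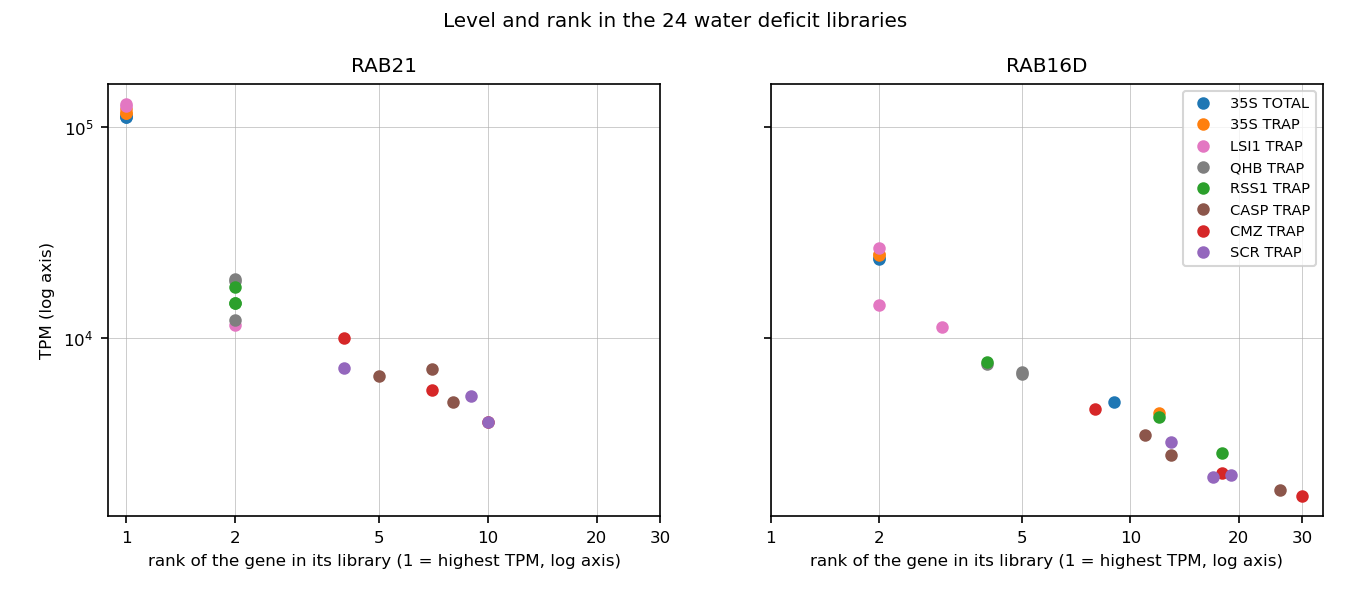
TPM (log axis) of RAB21 and RAB16D against the rank of the gene in its library (log axis, 1 is the highest TPM) in the 24 water deficit libraries, with a color for each line and RNA pool. RAB21 steps from rank 1, at 111900 to 129700 TPM, to rank 2, at 11580 to 19030 TPM, with no library between.

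Few differences between TOTAL and TRAP RNA of the 35S line passed both limits of the test. Of 50 pairs of gene and environment, 1 was called, against 17.1% of all pairs: RAB16B after waterlogging recovery, at 24.2, 95.7 and 27.8 TPM in TOTAL and 22.5, 24.6 and 12.5 in TRAP (log2 -1.03, limma adjusted p = 0.0379). With TOTAL and TRAP libraries of the same number paired, 2 of 50 were called against 18.7%, the added one being RAB16C in the same environment (-1.01, adjusted p = 0.00653). Another 16 pairs passed the adjusted p in the paired fit with a log2 difference under 1, of which 13 were higher in TRAP. After deficit recovery these were DHN1 (0.98, adjusted p = 0.0027), RAB16D (0.95, adjusted p = 0.00261) and RAB21 (0.82, adjusted p = 0.00742). In 10 of the 50 pairs all TRAP libraries lay above all TOTAL libraries, and in 0 below, with no share of all genes computed. The median log2 difference over all genes tested was also above 0 in every environment, from 0.001 (plates) to 0.236 (control I). Under deficit the log2 difference lay between -0.50 and 0.10 for the 5 genes. The deficit response itself differed between pools for 0 of 5 genes against 5.81% of all genes (limma, differences from -0.81 to -0.21). Under deficit RAB21 held the first rank in every library of both pools, and RAB16D the second in replicates 1 and 2 of both. Values set by rank can hardly differ between pools there, so for RAB21 and RAB16D these deficit comparisons cannot show that the pools agree. Without the libraries numbered 2, RAB16B was not called.

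The clade A PP2C genes, which hold back ABA signalling, rose along with the cluster under deficit. All 9 were called higher in 35S TOTAL RNA, 35S TRAP, RSS1 and CMZ, 8 in LSI1 and QHB, 7 in SCR and 6 in CASP. Of all genes tested, 2.16% (CASP) to 10.6% (35S TOTAL RNA) were called higher in these groups. In 35S TRAP the largest rise was OS05G0572700, from 0.311 to 42.1 TPM (log2 5.03), and the smallest was OS01G0583100 (1.24). The median of the list lay between 2.59 and 3.47 over the groups. Each of these rises was smaller than that of any RAB16 gene in 35S TRAP.

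Among the lists examined, other LEA and dehydrin genes had the largest rises, some within the range of the cluster. Of 19 other LEA genes, 11 (QHB, against 5.87% of all genes) to 15 (CMZ, against 3.45%) were called higher, with list medians of 4.77 to 6.33, and 1 was called lower in SCR and in CASP. The largest in 35S TRAP was OS03G0168100, from 10.8 to 4360 TPM (log2 8.50), above RAB16D, RAB16C and RAB16B in the same libraries. Of 4 other dehydrins listed, the Dehydrin-like OS01G0225600 reached 7.18 in 35S TRAP, Rab25-like OS01G0702500 5.05 and OS02G0669100 2.57, while OS01G0624400 was too low to test there. These 3 were all called in 35S TOTAL RNA, 35S TRAP, RSS1, CMZ and CASP, where 2.16% (CASP) to 10.6% (35S TOTAL RNA) of all genes were called higher.

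Upstream of the cluster the steps of the pathway moved less, and not in one direction. None of the genes listed as ABA receptors was called higher in any group, and 2 to 4 of 6 or 7 tested were called lower, against 6.5% of all pairs of gene and group. The largest fall in 35S TRAP was OS03G0297600, from 91.1 to 5.96 TPM (log2 -3.75). The deposited descriptions give a receptor role for OS05G0213500 only, whose difference was -0.53 in 35S TRAP. Of 10 SnRK2 kinases (SAPK1 to SAPK10), 1 (CMZ, against 3.45% of all genes) to 5 (RSS1, against 6.83%) were called higher, with OS03G0610900 at 2.94 and OS03G0390200 at 2.11 in 35S TRAP, and 1 was called lower in 35S TOTAL RNA and in CMZ. Of 6 bZIP genes tested, 1 to 5 were called higher, against 2.16 to 10.6% of all genes within a group. The largest in 35S TRAP was OS06G0211200 (3.84), described in the deposited table as a positive regulator. Of 3 genes of ABA synthesis, 0 (SCR) to 2 were called higher against the same shares, OS12G0617400 (Viviparous-14) by 2.68 in 35S TRAP. Of 3 listed for ABA breakdown, 1 or 2 were called higher in each group, again against these shares. Among them OS02G0703600, described as like an ABA hydroxylase, fell by 1.43 in 35S TRAP. The neighbouring gene OS11G0452400 was not called in any group and was at 3.94 TPM under deficit against 4.36 in control I in 35S TRAP.

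The genes whose group means were most like the cluster's over 62 groups included LEA and seed maturation genes, and were taken as the 10 highest Pearson r among 23185 genes compared. At the head were OS06G0341300 with a seed maturation protein domain (r = 0.986), the LEA gene OS06G0110200 (0.983), OS10G0505900 of unknown function (0.983) and the LEA gene OS03G0168100 (0.982). The others were OS03G0305600 (Tim17/22 family, 0.979), OS05G0151200 (TspO/MBR-related, 0.977), OS01G0644200 (like Little protein 1, 0.976), OS11G0181200 and OS03G0305550 (hypothetical, 0.976 each) and OS04G0610600 (like Cor14b, 0.975). OS06G0341300 went from 4.83 TPM in 35S TRAP control I to 1331 under deficit and 15.1 after recovery. These points share libraries and the normalization, and the values are a description.

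After 1 day of rewatering the transcripts had largely gone. All 35 pairs of gene and group were called lower than under deficit, against 4.78% of all pairs, with log2 differences from -8.80 to -4.39. Of the 35, 33 were called without the libraries numbered 1 and 32 without those numbered 2. In 35S TRAP RAB21 was at 445, 401 and 506 TPM after recovery, RAB16D at 327, 242 and 240, and DHN1 at 57.1, 37.5 and 41.2. RAB16B was at 35.6, 30.9 and 35.9 TPM and RAB16C at 31.7, 27.9 and 36.6. These libraries lie far below deficit, yet all of them lie above the control I libraries of the same gene.

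Against control I, 5 of 35 pairs were called higher after recovery, against 0.108% of all pairs. They were RAB21 (log2 3.07), RAB16D (2.68) and RAB16B (1.93) in 35S TRAP, and RAB16D (2.93) and RAB21 (2.59) in RSS1. In RSS1, RAB21 went from 63.2, 46.9 and 54.2 TPM in control I to 252, 469 and 313. In 24 of the 35 pairs all recovery libraries lay above all control I libraries, and in 11 they overlapped, including all 5 genes in CASP. The count was 11 when only the groups compared entered the fit while it was 3 without the libraries numbered 1 and 0 without those numbered 2.

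No gene of the cluster was called higher under waterlogging, and calls after its release came in part of the groups only. All log2 differences of recovery from waterlogging were above 0, from 1.25 to 4.24. Waterlogging recovery was not tested against control I. Against control I, 0 of 35 pairs were called by limma under waterlogging, against 0.441% of all pairs, while 674 to 4120 genes per group had an unadjusted p under 0.05. The log2 differences ran from -1.65 to 0.76, and in 6 pairs the waterlogged libraries all lay below control I. The count was 1 without the libraries numbered 1. In RSS1, RAB16C was at 5.44, 4.22 and 6.21 TPM under waterlogging and at 99.3, 169 and 93.8 TPM after 1 day of recovery. In 35S TOTAL RNA it was at 3.62, 1.40 and 5.15 TPM and then at 28.7, 144 and 39.4. Every recovery library was above every waterlogged one in both groups, and replicate 2 was the highest in both.

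Against waterlogging, 11 of 35 pairs were called higher after its recovery, against 0.179% of all pairs. These were all 5 genes in RSS1 and in 35S TOTAL RNA, and RAB16C in 35S TRAP. RAB16C rose by 4.24 ± 0.51 in RSS1 (limma adjusted p = 2.32e-05) and by 3.77 in 35S TOTAL RNA (adjusted p = 0.000255). RAB16D rose by 4.13 in RSS1 and by 4.12 in 35S TOTAL RNA (adjusted p = 0.000561), and RAB21 rose by 2.69 ± 0.59 in RSS1 (adjusted p = 0.0265). The median over the 35 pairs was 2.64, and 25 pairs had no overlap. CMZ had no overlap in any of the 5 genes, yet none was called (RAB21 81.6, 62.8 and 48.7 TPM, then 159, 359 and 379, limma adjusted p = 0.098). CASP waterlogging held the widest spread, with RAB21 at 63.8, 306 and 1.92 TPM. Without the libraries numbered 2, which hold the highest TOTAL library, 2 of 35 were called.

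Full submergence left the cluster near its control while much of the transcriptome moved. Against control II, 0 of 15 pairs were called, against 31.5% of all pairs (limma, with 11397 to 15907 genes per group at an unadjusted p under 0.05), and log2 differences ran from -0.84 to 0.33. After submergence recovery 1 of 15 was called, against 24.1% of all pairs. This was RAB16C in RSS1, at 5.35, 21.9 and 19.2 TPM under submergence and 2.33, 2.80 and 9.53 after it (-1.49, limma adjusted p = 0.0234), with ranges that overlap. The count was 2 without the libraries numbered 1 and 0 without those numbered 2 or 3. Between control II and control I, 0 of 15 pairs were called by limma, against 0.00748% of all pairs. Per group, 1445 to 4467 genes had an unadjusted p under 0.05. The log2 differences of the 15 ran from -1.04 to 0.43, and in 2 pairs every control II library lay below control I.

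In the field the cluster was lower than in the greenhouse control. Of 25 pairs 21 were called lower, against 3.63% of all pairs, with log2 differences over the 25 from -3.64 to -0.92, and 23 pairs had no overlap. In 35S TRAP RAB21 was at 16.1, 13.3 and 4.80 TPM and RAB16D at 7.77, 6.03 and 2.28. In LSI1, where the fall of RAB16D was largest (-3.64 ± 0.67, limma adjusted p = 0.0033), it went from 37.1, 79.3 and 110 TPM to 11.4, 8.49 and 0.482. The 4 pairs not called were DHN1 in 35S TOTAL RNA, 35S TRAP and QHB, and RAB16C in QHB. DHN1 in 35S TRAP was at 3.85, 2.48 and 19.5 TPM, and field replicate 3 was its highest also in 35S TOTAL RNA, QHB, RSS1 and HMA5. The count was 12 when only the groups compared entered the fit, 6 without the libraries numbered 2 and 12 without those numbered 3.

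On agar plates most of the cluster was lower than control I in 35S, and most of it was higher in QHB. In 35S TRAP RAB21 was at 6.24, 11.7 and 34.4 TPM, RAB16B at 0.197, 0.779 and 2.36, and DHN1 at 0.309, 1.91 and 2.53. In the QHB line, whose promoter is that of a homeobox gene of the root's quiescent centre, RAB21 was at 158, 295 and 746 TPM, RAB16D at 237, 380 and 914, and RAB16C at 36.8, 39.5 and 162. RAB16B was at 21.8, 35.2 and 158 TPM and DHN1 at 12.2, 16.0 and 102. Replicate 3 was the highest QHB plate library for all 5 genes. The QHB gene itself was at 509, 709 and 597 TPM in these libraries against 107 to 211 TPM in QHB control I, and its part in the result was not tested.

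Called lower on plates were 4 genes in 35S TRAP against 8.97% of genes (DHN1 -2.48, RAB16B -2.25, RAB21 -1.85, RAB16C -1.58), and 3 in 35S TOTAL RNA against 7.67% (DHN1 -2.17, RAB16C -1.88, RAB16B -1.59). In CMZ 1 gene was called lower against 5.67% (RAB21 -1.38, with overlap), and 0 were in RSS1 against 5.63% and in SCR against 3.96%. RAB16D was not lower in 35S, at 21.99, 49.0 and 77.0 TPM in TRAP against 28.2, 55.9 and 42.7 in control I (0.10, limma adjusted p = 0.91). In 35S TOTAL RNA its difference was 1.18 (adjusted p = 0.138). In QHB 4 genes were called higher against 3.46%: RAB16D by 4.24 ± 0.56 (limma adjusted p = 0.000716), RAB16C by 2.85, RAB21 by 2.23 and RAB16B by 1.98. DHN1 in QHB had a difference of 1.06 (adjusted p = 0.316). With the libraries numbered 2 left out, 7 of all 30 pairs were called in place of 12.

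The plate response of QHB was compared with that of 35S TRAP in 1 fit. All 5 genes were called higher, against 1.46% of genes: RAB16C 4.44, RAB16B 4.23, RAB16D 4.14, RAB21 4.08 and DHN1 3.54 (limma adjusted p from 0.00367 to 0.0463). For RSS1, CMZ and SCR, no gene of the cluster was called in this test. The labels state that the plate libraries of 35S TRAP, RSS1, CMZ, SCR and SHR were uploaded before, which they do not state of QHB, so line and upload cannot be told apart here. Without the libraries numbered 2 none of the 5 was called, and without those numbered 3 only 2 were.

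**Figure D4:**
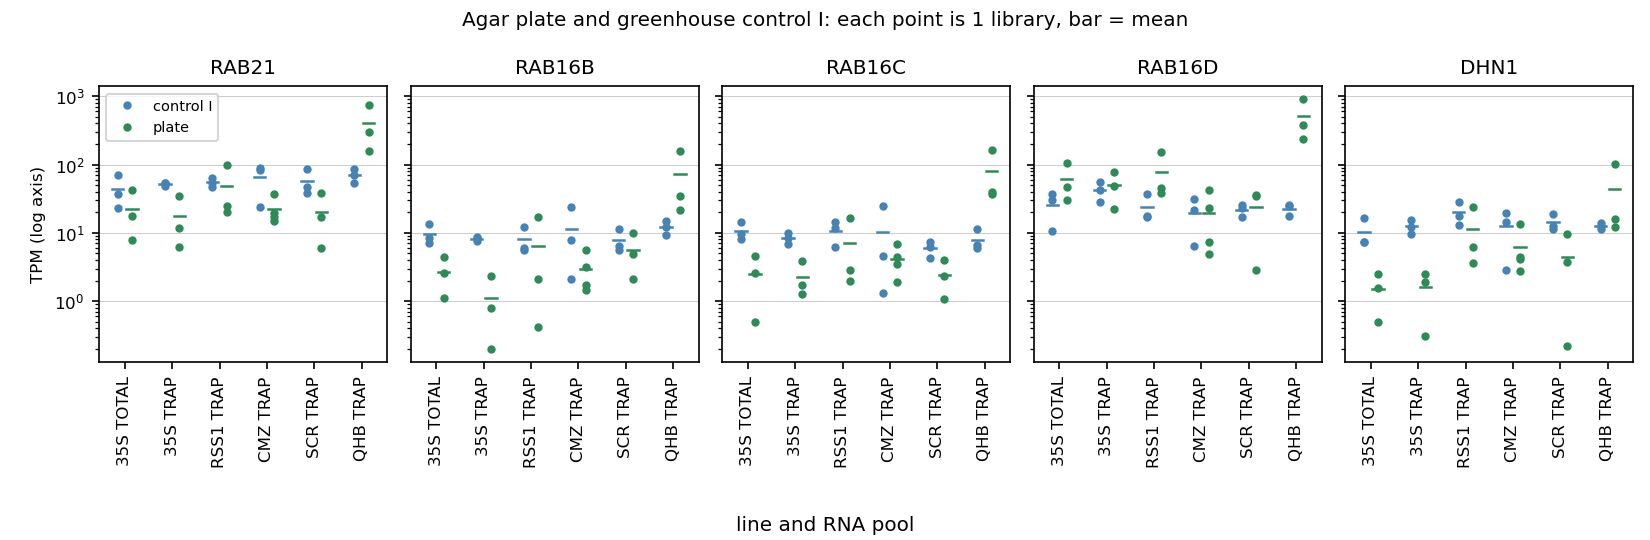
Levels of the 5 genes (TPM, log axis) in control I and on agar plates for 6 combinations of line and RNA pool, with 1 point per library and a bar at the mean. Plate points lie above control I in QHB for all genes but DHN1, whose ranges overlap, and below it in 35S TRAP for all genes but RAB16D.

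Accessibility upstream of all 5 genes rose under water deficit in the 35S nuclei and fell again on rewatering. Raw counts per upstream region were tested with edgeR, with a call at an adjusted p under 0.05, and levels are CPM, read counts scaled to library size by TMM. RAB21 was at 23.9, 23.2 and 24.2 CPM (49, 141 and 116 counts) in control I and at 59.1, 76.0 and 93.8 CPM (113, 241 and 415 counts) under deficit. RAB16B was at 22.5, 17.8 and 18.6 CPM and then at 70.1, 67.8 and 103, and RAB16D at 11.2, 15.5 and 13.0 and then at 40.3, 36.3 and 64.2. Every deficit library lay above every control I library, and replicate 3 was the highest. RAB16C went from 36.6, 34.4 and 32.2 CPM to 91.1, 61.5 and 112, and DHN1 from 31.8, 27.5 and 24.6 CPM to 62.8, 42.9 and 77.3.

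All 5 regions were called higher, against 0.509% of the 35390 regions tested. Regions of adjacent genes may share reads, so the 5 are not shown to be separate results. RAB16B rose by 2.04 on the log2 scale (edgeR adjusted p = 9.98e-08) and ranked 1 of all regions by size. RAB16D rose by 1.79 (adjusted p = 4.26e-06, rank 7), RAB21 by 1.67 (1.34e-07, rank 15), RAB16C by 1.34 (0.000143, rank 42) and DHN1 by 1.12 (0.00133, rank 89). Without replicate 3, DHN1 was not called. No neighbouring region was called, and OS11G0454250 had a difference of 0.61 (edgeR adjusted p = 0.511). In recovery RAB21 was at 22.9, 21.0 and 23.6 CPM, and all 5 regions were called lower than under deficit against 0.26% of regions, with log2 differences of -1.73 (RAB21) to -1.16 (DHN1). Without the libraries numbered 1, 3 of these were called. Against control I, recovery differed by -0.06 to 0.35, and 0 of 5 were called against 0% of regions (edgeR, with 2035 regions at an unadjusted p under 0.05).

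The chromatin of the tagged CMZ and QHB nuclei was not called changed under deficit. In CMZ, RAB21 was at 26.6, 43.0 and 34.2 CPM in control I and at 40.1, 40.5 and 35.2 under deficit, and 0 of 5 were called against 0.0255% of regions (edgeR, 5659 regions at an unadjusted p under 0.05), with differences from 0.14 to 0.60. In QHB, RAB16B was at 23.5, 18.3 and 21.2 CPM and then at 25.5, 57.0 and 40.6 (0.95, adjusted p = 0.458), and RAB21 had 0.82 (adjusted p = 0.538). Both had no overlap, and 0 of 5 were called against 0% of regions (3145 at an unadjusted p under 0.05). For RAB21 both lines held 35 to 148 counts in these libraries, against 49 to 415 in 35S, where the highest was a deficit library. Total counts of the control I and deficit libraries overlapped. They ran from 1134866 to 3413914 in CMZ, 1292588 to 2809634 in QHB and 1688253 to 5319257 in 35S.

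The difference from the 35S response was tested itself. In CMZ it ran from -1.74 (RAB16B, edgeR adjusted p = 0.701) to -0.51 (DHN1), with 0 of 5 called against 0% of regions, and in QHB from -1.87 (RAB16D, adjusted p = 0.843) to -0.46, with 0 of 5 against 0%. At an unadjusted p under 0.05 there were 1870 and 1561 regions, and DESeq2 called 0 of the 10. None of these differences passed the test over all regions, although RAB16D in QHB had an SE of 0.42, and RAB16B and RAB16D (-1.58) in CMZ had SEs of 0.45 and 0.43. Recovery in CMZ had 0 of 5 called against 0.00283% of regions (3333 regions at an unadjusted p under 0.05).

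In the other environments of the 35S nuclei, 1 region of the cluster was called, in the field. Waterlogging had 0 of 5 called against 0% of regions (edgeR, 2052 at an unadjusted p under 0.05), and in CMZ 0 of 5 against 0% (1222). Submergence had 0 of 5 against 6.7% (6186), with DHN1 at 27.0, 21.9 and 23.6 CPM in control II and 18.4, 12.6 and 16.8 submerged (-0.62, adjusted p = 0.0608). These DHN1 ranges do not overlap, and it was called with a replicate block or with only the groups compared in the fit. Submergence recovery had 0 of 5 against 1.74% (3993), and control II against control I had 0 of 5 against 0.0283% (9276). In the field 1 of 5 was called lower, against 27.3% of regions: RAB16B at 6.46, 9.59 and 11.2 CPM (-1.03, adjusted p = 0.000904), and 2 were called without the libraries numbered 3. In CMZ field nuclei 0 of 5 were called against 0.00283% of regions (2375). The DESeq2 counts for these comparisons are the same, and it gave no adjusted p for 1 region in the field.

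**Figure D5:**
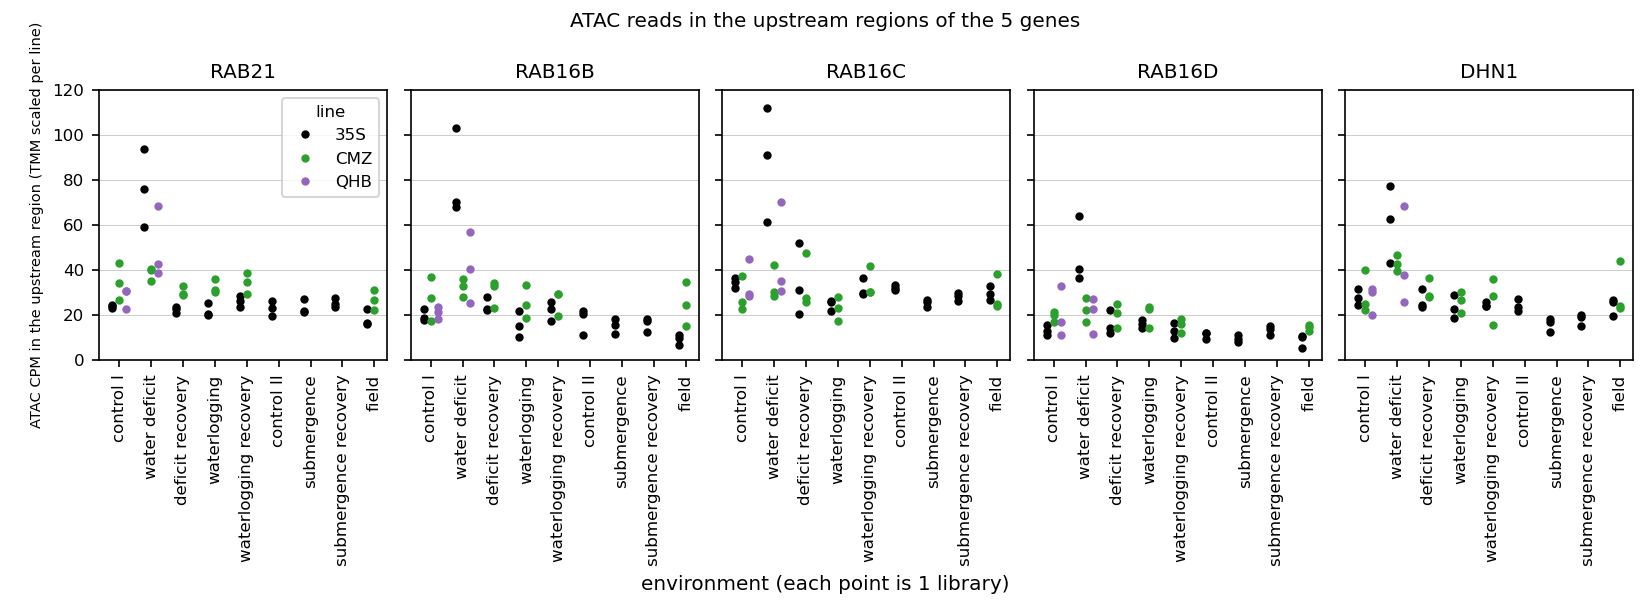
ATAC CPM (TMM scaled within each line) in the upstream region of each gene, by environment, for the 35S, CMZ and QHB nuclei, with 1 point per library. The 35S deficit points (black) stand above the 35S control I points in all 5 panels, while CMZ points of control I and deficit overlap.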

How the data were processed

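RNA levels are deposited TPM; per the file headers, the authors quantile-normalized the reads (limma voom) before TPM and dropped genes that passed a CPM limit in no condition. ATAC values are deposited counts per upstream region, in a table named for a window at the start codon (ATG), whose exact extent and strand no source used here states. The submitters' processing notes name Bowtie2, TopHat2, HOMER, limma and IRGSP-1.0, with no versions. The series held 238 libraries. Depth is unknown for TPM, and the number of libraries limits precision.

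From these values, limma 3.58.1 (R 4.3.3) fitted log2(TPM + 1) with a trend for genes reaching 1 TPM in 3 or more libraries, with 1 fit for each line and pool over all its environments. Lines were compared in 1 fit of the greenhouse TRAP libraries. edgeR 4.0.16 (quasi-likelihood, TMM, filterByExpr) fitted the counts, with DESeq2 1.42.0 as an alternative. Interactions needed an adjusted p alone, as did ATAC calls. Scripts were tested on simulated data. Alternatives were another pseudocount, no low filter, a rescaling, a replicate block, only the groups compared, and each replicate left out. Added after the data were seen were resetting the first value of each library to the second, the plate, pool and ATAC interactions, ATAC recovery against control I, and pairing of TOTAL with TRAP libraries. That pairing rests on the data: same-numbered TOTAL and TRAP libraries deviated together in 30 of 30 pairs (r 0.198 to 0.836). Among control I and deficit libraries, every same-numbered pair was over 0.1 in RSS1 only (0.145 to 0.287), where a replicate block changed no call.

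The members and gene lists were chosen with earlier results of these data known. Genes named are the 5 members, the 10 most like them by Pearson r among genes reaching 10 TPM, and from each list any called gene, chiefly the largest and smallest changes. Listed genes that were not called and are named were chosen after their values were seen.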

Additional observations from a re-analysis of the deposited data

Results flagged for a closer look

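In CMZ TRAP RNA from plates, the only group of 4 libraries, DHN1 was at 13.7 TPM in replicate 1 against 4.19, 2.76 and 4.41 in the others. The gap took 0.848 of the range, against a critical value of 0.829. Chance marks about 1 in 20 such tests. The 5 genes were each tested in these same 4 libraries, so the 5 tests are not independent.

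The RAB21 deficit response was smaller than that of 35S, with a limma interaction of -4.37 for CMZ (adjusted p 0.0138), -4.51 for SCR (0.0108) and -5.23 for CASP (0.00197). In 35S under deficit its level is the first value of each library.

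The plate response of QHB differed from that of 35S TRAP by 4.08 for RAB21, 4.23 for RAB16B, 4.44 for RAB16C, 4.14 for RAB16D and 3.54 for DHN1 (limma interaction, adjusted p 0.00367 to 0.0463).

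On plates every library of some groups lay below control I and every QHB library above it. For RAB16B the differences were -1.59 in 35S TOTAL RNA and -2.25 in 35S TRAP against 1.98 in QHB. For RAB16C they were -1.88, -1.58 and, in SCR, -1.08 against 2.85 in QHB, and for RAB21 -1.85 in 35S TRAP and -1.69 in SCR against 2.23. The pairs of QHB with 35S TOTAL RNA and with SCR were not tested.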

How the results depend on the processing

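Over 4369 values of single genes under alternatives, 4190 kept their side of the threshold, 145 lost a call and 34 gained one. Of values called in either fit, 0 changed sign. Changes of sign in values called in neither fit were not counted, and values with no adjusted p were left out. The deficit rise kept its call in 604 of 605, with log2 differences of 5.24 to 11.88. The exception was RAB21 in CASP, not called without the libraries numbered 2.

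Counts of called pairs moved as follows; causes were not tested. With only the groups compared in the fit, recovery against control I gave 11 (of 5), field 12 (of 21), waterlogging recovery 7 (of 11), submergence recovery 0 (of 1), ATAC recovery 3 (of 5) and ATAC submergence 1 (of 0). With a pseudocount of 0.1, recovery against control I gave 2 and TRAP against TOTAL 2 (of 1), and rescaling gave 3 for recovery against control I. With the first value reset, the line difference in deficit response gave 0 (of 3). DESeq2 called 1 in ATAC recovery, with no adjusted p for 9 of 10, and 1 in the field.

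Leaving out replicates gave 0 to 1 for TRAP against TOTAL, 3 to 8 (of 8) for lines under deficit, 0 to 5 for recovery against control I, and 0 to 3 for the line difference in deficit response. It gave 0 to 4 (of 5) for the QHB plate difference, 6 to 15 for the field, 7 to 12 (of 12) for plates, 0 to 2 for submergence recovery, 0 to 1 (of 0) for waterlogging, 2 to 11 for waterlogging recovery, 3 to 5 for ATAC recovery and 1 to 2 (of 1) for the ATAC field.

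With a replicate block, ATAC submergence gave 1, and no other count moved by over 1.5 times. With TOTAL and TRAP paired by a block within environment, the count was 2. Same-numbered control I and deficit libraries had r over 0.1 in 9 of 23 RNA pairs (-0.14 to 0.29) and 2 of 9 ATAC pairs (-0.07 to 0.31), and in RSS1 all 3 were, where the block changed no call. In the other lines they are taken to share only a number. The deficit recovery fall gave 32 to 35 (of 35) with replicates left out.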

Other observations

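Field lines with no control group of their own also held cluster transcripts. EXP5B was the highest field line for RAB21, at 113, 62.3 and 42.3 TPM, and for RAB16D at 59.2, 14.4 and 14.3. HMA5 had RAB21 at 19.5, 0.515 and 9.14 TPM and NRAMP5 at 51.2, 12.4 and 0.378, so that single libraries spanned a wide range. The promoter genes do not set all of these lines apart. The EXP5B gene had a mean of 2.16 TPM in its own line, against 0.138 in 35S TRAP and 6.67 in SHR1. NRAMP5 had a mean of 31.0 TPM in its own line against 25.4 in 35S TRAP and 1049 in LSI1, HMA5 29.6 in its own line against 27.0 in 35S TRAP, and SHR1 18.2 in its own line against 3.93 in 35S TRAP and 106 in LSI1. SHR1 had RAB21 at 32.2, 7.47 and 3.15 TPM in the field and at 17.1, 60.1 and 9.65 on plates. In 35S nuclei after waterlogging recovery the RAB16C upstream region was at 29.4, 29.8 and 36.2 CPM, against 25.9, 26.4 and 21.8 under waterlogging, a pair with no test here.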
